A study of Sus scrofa with 8 samples.

Results

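The mitochondrial genome of the pig carries 37 annotated genes, and their transcripts were followed here in skin that had or had not received interleukin-15 (IL-15). The genes were taken as all those that the deposited files place on chromosome MT, which gave 37 of 31907 genes, with 13 protein-coding genes, 22 tRNA genes and 2 rRNA genes. They lie between positions MT 1176 and 16613 of Sscrofa11.1, cover 15379 bases, and have the same span in the RefSeq gene table. The study sought genes induced by IL-15 in pig skin as readouts for a topical inhibitor of the kinases JAK1 and JAK3.

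The animals were wild-type Yorkshire swine. The injected group held 4 skin biopsies, taken 3 h after a 100 µl saline injection carrying 200 ng of IL-15 into the dermis, from sites 12d and 12c of pig 14 and sites 12e and 12c of pig 13. The control group held 4 biopsies of skin without injection, taken in pig 14 at sites 7e and 6b and in pig 13 at sites 7b and 6b. No site received saline alone, and the injected sites all carry number 12 while the controls carry 6 or 7, so that IL-15, the injection itself and the position on the skin cannot be told apart. Biopsies of one pig are not separate animals, and each p-value below measures the spread between sites within 2 animals.

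Mitochondrial DNA is transcribed from both strands into long precursors, which are cut at the tRNAs that lie between the other genes. The messenger RNAs encode core membrane subunits of the respiratory chain and of ATP synthase, while the remaining subunits come from nuclear genes. The rRNAs and tRNAs serve the mitochondrial ribosome. ND6 and 8 of the tRNA genes lie on the minus strand of the build and are called light-strand genes here; the other 28 genes are called heavy-strand genes. The files and reference tables name none of the tRNA and rRNA genes, so the tRNA genes are numbered 1 to 22 along the build and the rRNA genes are called short (ENSSSCG00000018061, MT 1246 to 2205) and long (ENSSSCG00000018063, MT 2274 to 3844).

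Total counts ran from 28471089 to 36070107 in the injected and from 28730579 to 33567610 in the control libraries. The labelled tissue carried its markers: KRT5 of basal keratinocytes had 5668 to 8260 CPM (counts relative to library size, after TMM scaling) in injected skin, against 3169 to 10841 CPM in controls, and COL1A1 of fibroblasts had 37248 to 102440 CPM in injected skin, against 8108 to 99187 CPM in controls. The control biopsy 7b of pig 13 stood apart, with a summed 18970 CPM over 6 fibroblast matrix genes against 76654 to 192000 CPM in the other 7 biopsies, and values without it are given where a result changes. Skeletal muscle markers summed to 16.8 to 18.8 CPM in injected skin, against 12.6 to 19.9 CPM in controls. RNA came from whole biopsies, where fewer cells of a type and less RNA per cell cannot be told apart.

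Mitochondrial transcripts made up a few percent of each library, and their share did not separate the groups. In injected skin they held 3.90% and 3.10% of all counts in pig 14 (sites 12d and 12c) and 3.44% and 3.51% in pig 13 (sites 12e and 12c). In control skin they held 4.69% and 3.87% in pig 14 (sites 7e and 6b) and 3.09% and 3.62% in pig 13 (sites 7b and 6b). The highest and the lowest share both belonged to control biopsies, so that the injected range lay inside the control range. The mean was 3.49% ± 0.33 in injected and 3.82% ± 0.67 in control biopsies (SD, n = 4 each). The difference of -0.33 percentage points had p = 0.444 by an exact two-sided permutation test with labels exchanged within each pig, and p = 0.444 after adjustment over the 4 shares tested. With 36 arrangements this exact test cannot go below p = 0.0556. Counting error was small beside these differences, since no 95% Wilson interval of the share was wider than 0.0149 percentage points; such intervals cover counting error only.

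**Figure D1:**
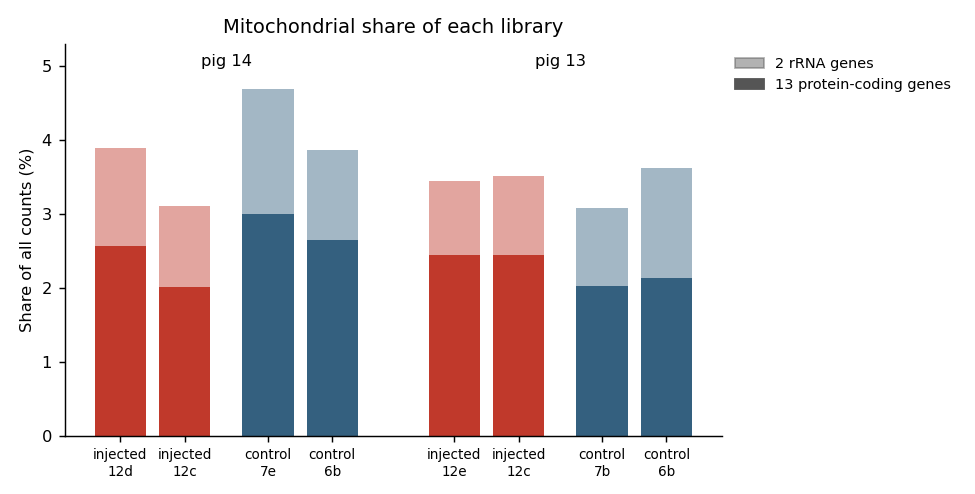
Share of all counts (%) held by the 13 protein-coding genes (full colour) and the 2 rRNA genes (pale) of the mitochondrial genome in each biopsy, injected in red and control in blue; tRNA counts are too few to draw. In pig 14 both injected biopsies (2.56% and 2.01% protein-coding) stand below both controls (3.00% and 2.64%), and in pig 13 both injected biopsies (2.44% and 2.45%) stand above both controls (2.02% and 2.14%).

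Levels per kilobase are given as RPKM, that is, the TMM-scaled CPM divided by gene length in kilobases, with biopsies always in the site order above. The genes of one precursor did not appear at one level. Among messenger RNAs and rRNAs the mean over 8 biopsies ran from 5518 RPKM for the short rRNA down to 72.4 RPKM for ATP8, and all 13 messenger RNAs were detected in every biopsy. COX3 averaged 4927 RPKM, the long rRNA 4604, COX1 4496 and COX2 4089 RPKM. These upper places are not firmly ordered, since the short rRNA exceeded COX3 in 5 of 8 biopsies, COX3 exceeded the long rRNA in 6, the long rRNA exceeded COX1 in 4 and COX1 exceeded COX2 in 6. Below them the steps were clearer: COX2 exceeded ATP6, ATP6 exceeded CYTB, CYTB exceeded ND3 and ND3 exceeded ND1 in 8 of 8 biopsies each. ND1 and ND2, with 1402 and 1386 RPKM, changed places between biopsies, and ND2 was above ND4L in all 8. ND4L exceeded ND5 in 7 biopsies and ND5 exceeded ND4 in 6, while ND4 exceeded ND6 in all 8. The 2 rRNA values are what remained after the RiboZero Gold depletion named in the labels, which is made to remove rRNA, and they therefore do not give the level in the tissue.

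**Figure D2:**
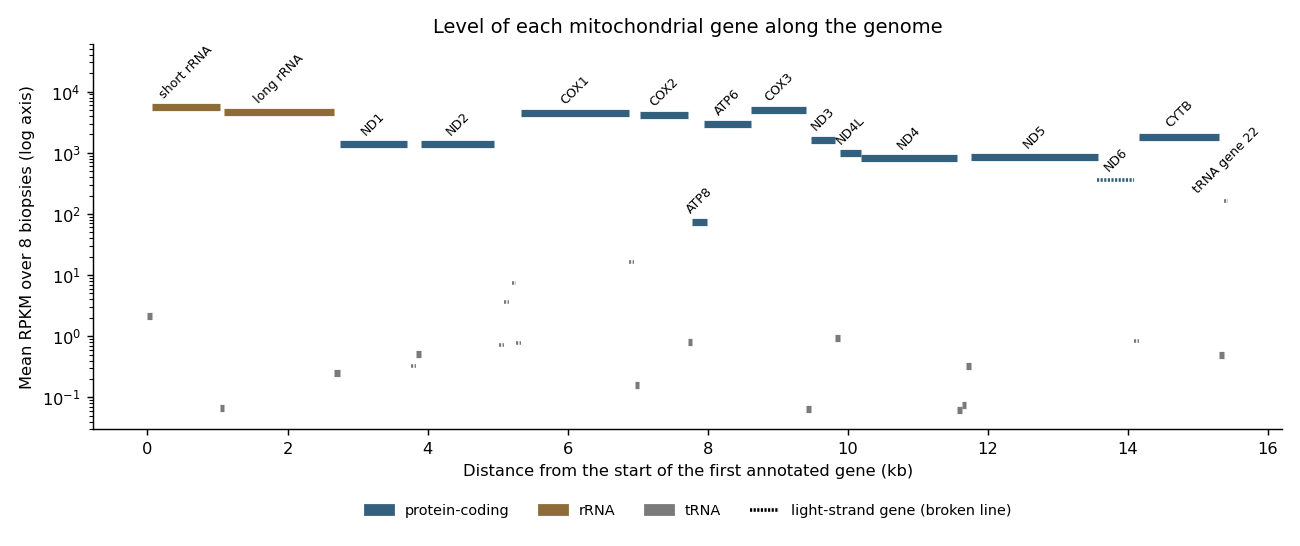
Mean RPKM over 8 biopsies (log axis) of each mitochondrial gene against its distance in kb from the start of the first annotated gene; blue is protein-coding, brown rRNA, grey tRNA, and broken lines are light-strand genes. The rRNA genes and the 12 other messenger RNAs lie between 357 and 5518 RPKM, ATP8 lies at 72.4 RPKM, and tRNA genes 4 and 7, with no count in any biopsy, have no line.

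The complex I genes encode membrane subunits of NADH dehydrogenase, the entry point of electrons from NADH. ND1 (MT 3922 to 4876), which helps to form the quinone-binding site, had 1550, 1352, 1339 and 1293 RPKM in injected biopsies, against 1957, 1699, 964 and 1062 RPKM in control biopsies. ND2 (MT 5087 to 6128), one of the proton-pumping subunits, had 1557, 1290, 1161 and 1358 RPKM in injected biopsies, against 1940, 1844, 769 and 1169 RPKM in control biopsies. For both genes the pig 14 controls were the highest values and a pig 13 control was the lowest, so the injected values lay within the control range. ND3 (MT 10653 to 10998), a small subunit next to the quinone site, had 1930, 1372, 1809 and 1725 RPKM in injected biopsies, against 2280, 1722, 1064 and 1263 RPKM in control biopsies. ND4L (MT 11069 to 11365) had 1002, 967, 673 and 824 RPKM in injected biopsies, against 1242, 1473, 682 and 976 RPKM in control biopsies. In pig 13 both injected ND3 values exceeded both controls, whereas the ND4L values of injected and control sites overlapped. Over both pigs the groups of both genes overlapped.

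ND4 (MT 11359 to 12736), another proton-pumping subunit, had 924, 813, 736 and 719 RPKM in injected biopsies, against 1080, 1029, 582 and 719 RPKM in control biopsies. ND5 (MT 12935 to 14755), the largest of the pumping subunits, had 895, 788, 786 and 816 RPKM in injected biopsies, against 1108, 1078, 648 and 773 RPKM in control biopsies. The injected values of ND5 lay close together, with 821 ± 51 RPKM against 902 ± 227 RPKM in controls (SD, n = 4 each). ND6 (MT 14739 to 15266), the single protein-coding gene of the light strand, had 399, 329, 302 and 370 RPKM in injected biopsies, against 517, 405, 234 and 304 RPKM in control biopsies. Per kilobase ND6 stood at 0.384 to 0.454 of ND5 in injected skin and at 0.361 to 0.467 in controls, although the annotated genes meet end to end on opposite strands. The strand setting of the counting is not stated in any label or header used here. Sense and antisense reads, and reads in the few shared bases, may therefore not be told apart.

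CYTB (MT 15342 to 16481) encodes cytochrome b, the core membrane subunit of complex III. It had 2126, 1571, 1953 and 1792 RPKM in injected biopsies, against 2382, 2012, 1423 and 1475 RPKM in control biopsies. The highest and both lowest values were controls, from different pigs.

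The complex IV genes encode the catalytic core of cytochrome c oxidase and held 55.1% to 56.8% of the mitochondrial messenger RNA counts in injected skin, against 54.7% to 60.3% in controls. COX1 (MT 6511 to 8055), which carries the oxygen-reducing centre, had 4587, 3913, 4267 and 4350 RPKM in injected biopsies, against 5741, 5138, 4304 and 3666 RPKM in control biopsies. COX2 (MT 8203 to 8890), which accepts electrons from cytochrome c, had 4499, 3505, 3530 and 4044 RPKM in injected biopsies, against 5839, 5220, 2767 and 3306 RPKM in control biopsies. COX1 had the smallest spread among the 16 mitochondrial genes that averaged at least 20 RPKM, with a coefficient of variation of 14.8% over all 8 biopsies against 25.4% for COX2. COX3 (MT 9800 to 10583), a structural core subunit, had 5873, 4345, 5018 and 4710 RPKM in injected biopsies, against 6956, 5677, 3328 and 3511 RPKM in control biopsies. The pig 13 controls were the lowest COX3 values and a pig 14 control was the highest.

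The complex V genes encode membrane subunits of ATP synthase. ATP6 (MT 9120 to 9800), which forms the proton path, had 3358, 2578, 2513 and 2941 RPKM in injected biopsies, against 4130, 3661, 1934 and 2404 RPKM in control biopsies. ATP8 (MT 8959 to 9162), a small subunit of the same membrane part, had 65.2, 59.3, 33.6 and 145 RPKM in injected biopsies, against 66.1, 79.7, 21.1 and 109 RPKM in control biopsies. ATP8 thus had the lowest level per kilobase among the protein-coding genes, and the mean level of ATP6 was 40.6-fold higher. Both are known to be read from a shared transcript, so these counts do not give the levels of separate messenger RNAs. The annotated genes overlap by 43 bases, or 21.1% of ATP8. How reads in that overlap were assigned is not stated in the labels or headers.

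ATP8 also varied more than any other of the 16 genes, by 6.88-fold between the lowest and highest biopsy and with a coefficient of variation of 55%, against 1.57-fold to 2.52-fold for the other 15. The ratio of ATP8 to ATP6 per kilobase was 0.0194, 0.0230, 0.0134 and 0.0495 in injected biopsies, against 0.0160, 0.0218, 0.0109 and 0.0454 in control biopsies. It was highest in site 12c and site 6b of pig 13, one injected and one control, and lowest in the other injected and the other control site of that pig. The 2536 nuclear genes of at most 300 bases summed to 33962, 23583, 19283 and 15545 CPM in injected and 25007, 24481, 27000 and 25001 CPM in control biopsies before TMM scaling. The biopsy with the highest ATP8 had the lowest such sum; the part of short genes in the ATP8 spread was not tested.

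The 2 rRNAs were lower on average in injected skin, without separating the groups. The short rRNA had 5896, 5313, 4422 and 4509 RPKM in injected biopsies, against 8208, 5597, 4571 and 5629 RPKM in control biopsies. The long rRNA had 5229, 4210, 3239 and 3716 RPKM in injected biopsies, against 6722, 5103, 3419 and 5194 RPKM in control biopsies. In each pig at least one control exceeded both injected biopsies, and the groups overlapped for both genes. As a share of mitochondrial counts the rRNAs held 32.2% ± 3.0 in injected and 35.8% ± 3.9 in control biopsies (SD, n = 4 each), a difference of -3.61 percentage points (exact within-pig permutation p = 0.222, 0.37 adjusted over 4 shares). Annotated nuclear rRNA genes, which the same depletion targets, held 0.221% to 0.528% of all counts in injected skin, against 0.557% to 1.58% in controls, without overlap; the part of depletion in the mitochondrial rRNA values was not tested.

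**Figure D3:**
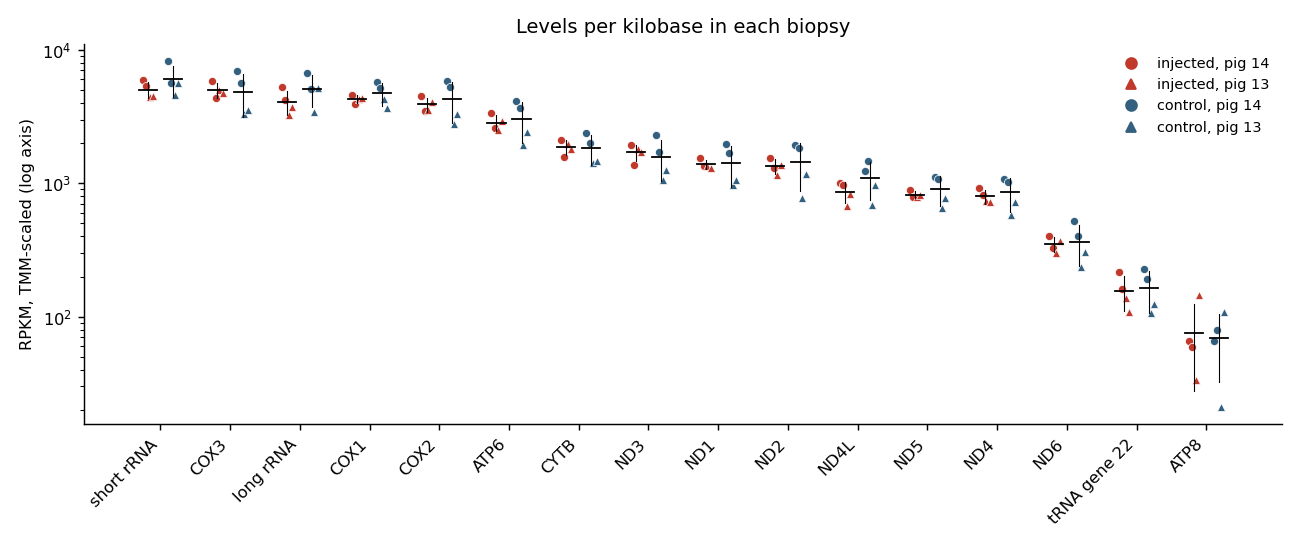
TMM-scaled RPKM (log axis) of the 16 mitochondrial genes averaging at least 20 RPKM, in order of mean level; each point is a biopsy (circle pig 14, triangle pig 13), injected in red to the left of control in blue, with the mean and SD of 4 biopsies. ATP8 has the widest relative range, from 21.1 to 145 RPKM, and COX1 the narrowest, from 3666 to 5741 RPKM.

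The tRNA genes gave almost no reads, 347 to 461 in injected skin, against 336 to 468 in controls, which is 0.0360% ± 0.0042 and 0.0331% ± 0.0023 of mitochondrial counts (SD, n = 4 each; exact within-pig permutation p = 0.278, 0.37 adjusted). Between 7 and 11 of the 22 tRNA genes had no count in an injected biopsy and between 8 and 12 in a control biopsy, and genes 4 and 7 had none in all 8. No count still leaves room for 3 reads, which is 0.0832 to 0.105 CPM depending on the library. Most counts fell on light-strand genes: the 8 light-strand tRNA genes held 93.4% to 98.3% of tRNA counts in injected skin, against 95.2% to 97.7% in controls. The other 14 of the 22 genes are on the heavy strand. The strand setting of the counting is not stated, so the strand of these reads is not known.

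Most of the tRNA counts came from tRNA gene 22 (ENSSSCG00000018096, MT 16550 to 16613, minus strand), the last annotated gene before the end of the build's sequence. It had 217, 162, 139 and 109 RPKM in injected biopsies, against 229, 191, 107 and 126 RPKM in control biopsies. Every pig 14 value lay above every pig 13 value, in both groups. The gene held 68.9% to 87.2% of all tRNA counts in injected skin, against 73.2% to 88.9% in controls. Next came gene 12 (ENSSSCG00000018076, MT 8059 to 8129) with 13.1 to 19.1 RPKM in injected skin against 10.9 to 23.6 RPKM in controls, and gene 10 (ENSSSCG00000018073, MT 6379 to 6444) with 2.78 to 8.90 RPKM in injected skin against 4.28 to 10.8 RPKM in controls. Both are light-strand genes as well. Light-strand genes together, ND6 included, held 0.564% ± 0.033 of mitochondrial counts in injected and 0.522% ± 0.041 in control biopsies (SD, n = 4 each; difference 0.0425 percentage points, exact within-pig permutation p = 0.167, 0.37 adjusted).

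No mitochondrial gene passed the test of injected against control skin. Of the 37 genes, 18 had enough counts to be tested, namely the 13 messenger RNAs, the 2 rRNAs and tRNA genes 10, 12 and 22. By edgeR's quasi-likelihood test with pig in the model, 0 of 18 had a Benjamini-Hochberg adjusted p under 0.05, beside 0.0352% of the 19862 genes tested, and 0 of 18 had an unadjusted p under 0.05, beside 4.54%. DESeq2 called 0 of the 17 to which it gave an adjusted p (all but tRNA gene 10), beside 0.31% of its 18706 such genes. The smallest p was that of ND4L, with a log2 difference of -0.31 ± 0.14 (SE, adjusted p = 0.964 by edgeR). The median log2 difference was -0.016 over the 13 messenger RNAs and -0.28 over the 2 rRNAs, beside -0.0078 over all genes tested. With one biopsy left out the messenger RNA median ran from -0.16, with control 7b of pig 13 omitted, to 0.12, with injected 12c of pig 14 omitted, and so took either sign. Among messenger RNAs other than ND4L the log2 differences ran from -0.12 ± 0.19 for COX1 to 0.16 ± 0.20 for ND3 (SE). The spread between sites limits what could be seen, most of all for ATP8, whose log2 difference of 0.12 had an SE of 0.63. No gene had every injected biopsy above, or every one below, all control biopsies, beside 1.15% and 0.916% of all genes tested.

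Relative to the mitochondrial total, the composition of the transcripts was also not shown to change. With that total as library size, edgeR called 0 of the 18 genes that enter this fit. One gene, ND3, had an unadjusted p under 0.05, with a log2 difference of 0.28 ± 0.14 (SE).

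Taken within each animal, the injected and control means of most messenger RNAs stood in opposite order in pig 14 and pig 13. Single biopsies overlapped within at least one pig for most of them. In pig 14 both injected biopsies lay below both controls for 10 of the 13 messenger RNAs, namely ND1, ND2, COX1, COX2, ATP8, ATP6, ND4L, ND4, ND5 and ND6; the background for this separation was 21% of all genes tested. In pig 13 both injected biopsies lay above both controls for 7 of the 13, namely ND1, COX2, ATP6, COX3, ND3, ND5 and CYTB, beside 18.2%. Both separations, in opposite directions, held for 4 genes, ND1, COX2, ATP6 and ND5, beside 3.81%. With 2 sites in each cell such separations are frequent among all genes, and the messenger RNAs share precursors, so they are not independent of one another.

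For COX2, mean CPM was 2754 in injected and 3804 in control biopsies of pig 14, a log2 ratio of -0.47, and 2605 in injected and 2089 in control biopsies of pig 13, a log2 ratio of 0.32. ND3 had log2 ratios of -0.28 in pig 14 and 0.60 in pig 13, and COX3 had -0.31 and 0.51. Injected biopsies of the pigs resembled each other in these genes, whereas the control biopsies of pig 14 and pig 13 lay apart. The exceptions were ND4L, with -0.46 in pig 14 and -0.15 in pig 13, the short rRNA with -0.30 and -0.19, the long rRNA with -0.325 and -0.309, and tRNA gene 10 with -0.08 and -0.11.

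The test of this difference between animals called no mitochondrial gene. When edgeR's model held a pig by treatment interaction, 0 of 18 had an adjusted p under 0.05, as did 0% of all genes tested, and the smallest adjusted p was 0.508, for ND3 with an interaction of -0.88 ± 0.30 on the log2 scale (SE). DESeq2 called 0 of the 16 to which it gave an adjusted p (all but tRNA genes 10 and 12), beside 0.615% of its 14471 such genes. At an unadjusted p under 0.05 there were 7 of 18 (ND1, ND2, COX2, ATP6, COX3, ND3 and ND6), beside 8.22% of all genes tested. All 13 messenger RNAs had an interaction below 0, with a median of -0.69, beside a median of -0.0031 over all genes tested, of which 50.3% were below 0. Without the pig 13 control from site 7b the median over the messenger RNAs was -0.57.

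As a share of all counts, injected minus control, the whole mitochondrial genome differed by -0.78 percentage points in pig 14 and by 0.12 points in pig 13. Its messenger RNAs differed by -0.53 points in pig 14 and by 0.37 points in pig 13, and its rRNAs by -0.24 points in each. These sums hold the counts described above and add no separate support. An exact within-pig permutation test of the difference between the pigs gave p = 0.333 for the whole genome. For the messenger RNAs the same test gave an unadjusted p = 0.0556, the smallest possible with 36 arrangements.

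Of the 10 marker lists of skin tissue parts, 4 likewise had a lower mean sum in injected than in control skin of pig 14 and a higher one in pig 13. These were adipocyte, fibroblast matrix, red blood cell, and sweat and sebaceous gland markers. The opposite pattern was seen in 1 list, basal keratinocyte markers. Its mean sums were 13140 CPM in injected and 7748 CPM in control skin of pig 14, and 15877 and 17352 CPM in pig 13. Of the other lists, 3 were higher and 2 lower in injected skin of both pigs. The 8 adipocyte genes, all tested and none at 0 in any biopsy, summed to 4223 and 1678 CPM in injected and 4919 and 2870 CPM in control biopsies of pig 14, and to 4024 and 3655 CPM in injected and 1127 and 1523 CPM in control biopsies of pig 13. Their sums overlapped in pig 14 and were higher in every injected biopsy of pig 13. FASN, a fatty acid synthesis enzyme and the most abundant of them, had 1623 and 1656 CPM in injected and 478 and 912 CPM in control biopsies of pig 13.

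The 5 sweat and sebaceous gland genes, none at 0 in any biopsy, summed to 1018 and 658 CPM in injected and 1250 and 1275 CPM in control biopsies of pig 14, and to 4292 and 4283 CPM in injected and 1111 and 2030 CPM in control biopsies of pig 13. The sums did not overlap within either pig. Most of each sum was SCD, a fatty acid desaturase, with an interaction of -2.15 on the log2 scale, while the other 3 tested genes, AQP5, KRT7 and MC5R, had interactions above 0. The 6 fibroblast matrix genes summed to 136010 and 189920 CPM in injected and 166810 and 192000 CPM in control biopsies of pig 14, and to 77069 and 108660 CPM in injected and 18970 and 76654 CPM in control biopsies of pig 13. For the interaction, edgeR called 0 of the 56 tested genes of the 10 lists, beside 0% of all genes tested. At an unadjusted p under 0.05 there were 12, beside 8.22%. DESeq2 called 5 of the 50 to which it gave an adjusted p, beside 0.615% of its 14471 such genes: SCD, FASN, COL17A1, ITGB4 and DES. The log2 interaction was below 0 for SCD (-2.15) and FASN (-1.63). It was above 0 for COL17A1 (1.28) and ITGB4 (1.32), both of the basal keratinocyte list. The part of these tissues in the mitochondrial values was not tested.

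**Figure D4:**
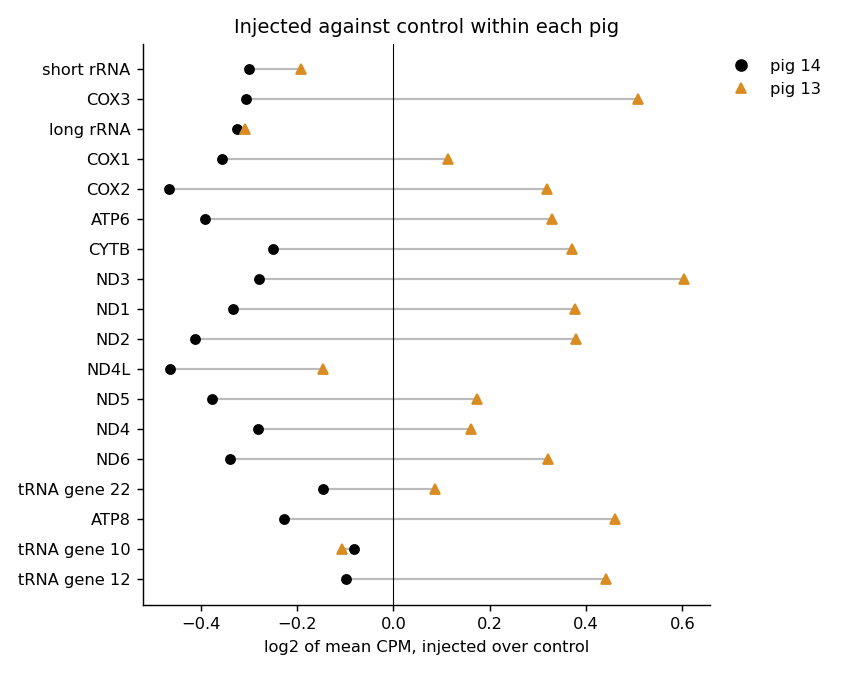
Log2 ratio of the mean CPM of 2 injected to 2 control biopsies within pig 14 (circles) and within pig 13 (triangles) for the 18 tested mitochondrial genes. The circles run from -0.47 for COX2 to -0.08 for tRNA gene 10, and the triangles from -0.31 for the long rRNA to 0.60 for ND3. Within a pig, injected and control biopsies of some of these genes overlapped.

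Between the animals, over all biopsies and with treatment in the model, edgeR called 2 of 18 genes higher in pig 14 and 0 lower, beside 6.39% of all genes tested called higher and 10.7% called in either direction. The called genes were tRNA gene 22, with a log2 difference of 0.74 ± 0.15 (SE, adjusted p = 0.0134 by edgeR), and ND4L, with 0.55 ± 0.14 (SE, adjusted p = 0.0339 by edgeR). Neither was called without the injected biopsy 12d of pig 14 or without the control biopsy 7e of pig 14, when tRNA gene 22 had an adjusted p of 0.0592 and 0.0538, and ND4L was also lost without site 12e of pig 13 (0.106) or without control 6b of pig 14 (0.103), all by edgeR. Without the injected biopsy 12c of pig 14, 4 genes were called, with ND1 and ND4 added. In 16 of 18 genes the fitted difference was above 0, beside 49.7% of all genes tested, with a median of 0.47 over the messenger RNAs beside -0.0024 over all genes tested. ATP8 (-0.18 ± 0.63) and tRNA gene 10 (-0.53 ± 0.42, both SE) were the exceptions. In injected skin alone, however, mean CPM was lower in pig 14 than in pig 13 for COX1 (6566 and 6656), ND3 (571 and 611) and CYTB (2107 and 2135) as well as for ATP8 (12.7 and 18.3) and tRNA genes 10 and 12. With 1 pig in each arm, this compares 2 animals only.

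DESeq2 called 5 of 18 in this comparison, all higher in pig 14 and with ND1, ND2 and ND4 added, beside 9.08% of all genes called higher and 15.8% in either direction. All pig 14 biopsies exceeded all pig 13 biopsies for ND1, ND4 and tRNA gene 22, which is 3 of 18 genes beside 9.87%. Relative to the mitochondrial total, 0 of 18 genes were called between the animals by edgeR. Other tissue markers also differed between the pigs: 4 tested red blood cell genes summed to 182 to 480 CPM in pig 14 and 4.99 to 20.3 CPM in pig 13 over both groups, with AHSP at 0 in one pig 13 biopsy, and 6 fibroblast matrix genes to 136010 to 192000 CPM in pig 14 and 18970 to 108660 CPM in pig 13. Their part in the mitochondrial values was not tested.

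Of the nuclear genes that build or serve the same machinery, none was called in injected skin. The lists held 214 symbols, of which 194 genes were tested and 0 were called by edgeR in either direction, beside 0.0352% of all genes; their median log2 difference was 0.0047, with a range from -0.32 to 0.51. At an unadjusted p under 0.05 there were 3 higher and 1 lower, beside 2.39% and 2.15% of all genes tested. DESeq2 called 0 of the 192 to which it gave an adjusted p, beside 0.31% of its 18706 such genes.

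Among nuclear subunits of the respiratory chain, 68 were tested and the median log2 difference was 0.0035. NDUFA3, an accessory subunit of complex I, had 45.7, 34.4, 51.8 and 50.7 CPM in injected biopsies, against 38.1, 31.7, 40.7 and 36.8 CPM in control biopsies. Its groups overlapped, with a log2 difference of 0.30 ± 0.11 (SE, adjusted p = 0.964 by edgeR). NDUFV3, another accessory subunit of complex I, had a log2 difference of 0.17 ± 0.09 (SE). Succinate dehydrogenase, complex II, is built from nuclear genes alone; its flavoprotein subunit SDHA differed by 0.23 ± 0.13 and its membrane anchor SDHD by -0.09 ± 0.14. In complex III, cytochrome c1 (CYC1) differed by 0.13 ± 0.09 and the iron-sulfur protein UQCRFS1 by -0.11 ± 0.10. The small complex IV subunits COX7C and COX7B differed by -0.20 ± 0.14 and -0.18 ± 0.15, and the ATP synthase subunits ATP5F1D and ATP5PO by 0.23 ± 0.13 and -0.17 ± 0.12. None of these was called, with adjusted p = 0.964 by edgeR for each but SDHD, which had 0.97. The most abundant subunits, NDUFS7, UQCRC1, COX8A and ATP5F1A, had log2 differences between -0.08 and 0.03.

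Genes for the proteins that copy and read the mitochondrial genome were not called. POLRMT, the mitochondrial RNA polymerase, had 71.0, 79.9, 76.1 and 69.5 CPM in injected biopsies, against 57.6, 55.7, 69.4 and 72.2 CPM in control biopsies, with a log2 difference of 0.23 ± 0.10 (SE, adjusted p = 0.964 by edgeR). In pig 14 both of its injected values exceeded both control values, beside 20.5% of all genes tested, and in pig 13 they overlapped. TWNK, the replicative helicase, had a log2 difference of 0.20 ± 0.15. PPRC1, a coactivator of the PGC-1 family, had 52.1, 62.5, 58.3 and 53.6 CPM in injected biopsies, against 38.0, 45.7, 53.3 and 48.5 CPM in control biopsies, with a log2 difference of 0.29 ± 0.11 (SE, adjusted p = 0.964 by edgeR). Within each pig both injected values of PPRC1 exceeded both control values. This separation held for 20.5% of all genes tested in pig 14 and for 18.2% in pig 13. The share of genes with it in both pigs at once was not computed. POLRMT and PPRC1 were named for a small p in this same comparison, so their separations add no support. PPARGC1B, also of the PGC-1 family, had -0.22 ± 0.13.

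LRPPRC, which stabilises mitochondrial messenger RNA, had -0.09 ± 0.10, and the tRNA-modifying and tRNA-maturing enzymes TRMU and TRNT1 had 0.18 ± 0.11 and -0.22 ± 0.15. Among mitoribosome proteins, 73 genes had a median of 0.02, with MRPL39 at -0.23 ± 0.08, MRPS26 at 0.20 ± 0.09 and MRPL23, the most abundant, at -0.02 ± 0.12. MRPL39 had 25.0, 25.6, 23.1 and 24.2 CPM in injected biopsies, against 28.8, 29.9, 28.4 and 27.8 CPM in control biopsies. These groups did not overlap, beside 0.916% of all genes with every injected biopsy below every control. MRPL39 was named for its small p in this same comparison, so its separation adds no support. Its adjusted p was 0.964 by edgeR. The stress and import list of 10 genes had the highest median of the nuclear lists, 0.13, with the protease CLPP at 0.21 ± 0.10, the chaperones DNAJA3 at 0.18 ± 0.10 and HSPA9 at 0.11 ± 0.09 (log2, SE) and 0 called.

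**Figure D5:**
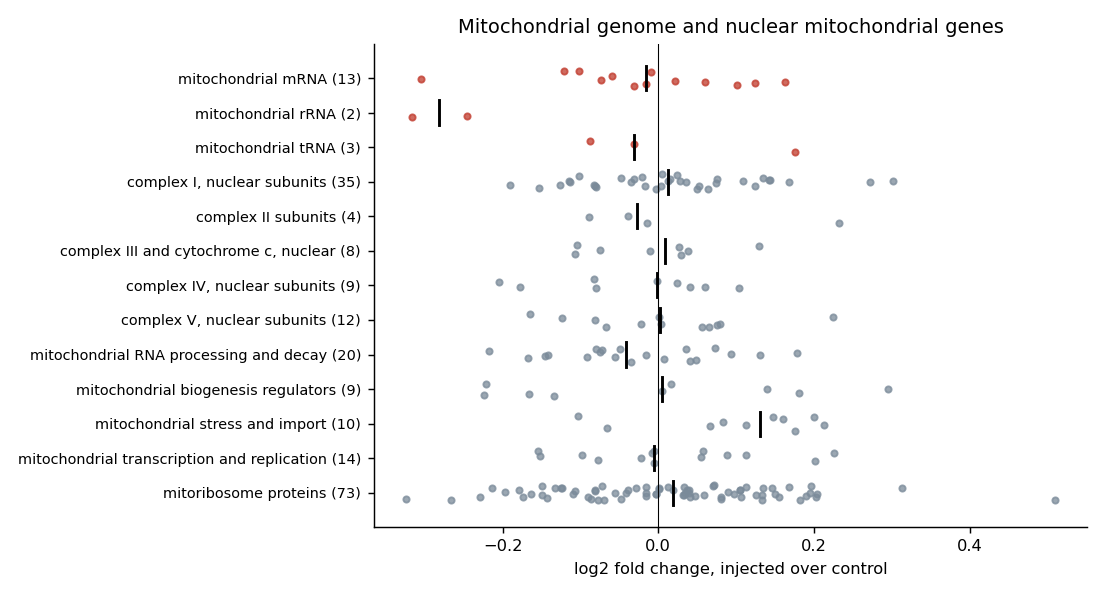
Log2 fold change of injected over control biopsies for the tested mitochondrial genes (red) and for nuclear genes of mitochondrial function (grey), by list, with the number of tested genes in brackets; each point is a gene and each bar the list's median. No point passed the test, and the nuclear lists have medians between -0.04 and 0.13.

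Between pig 14 and pig 13, 2 of the 194 nuclear genes were called higher and 4 lower, beside 6.39% and 4.34% of all genes tested, and their median log2 difference was -0.09, beside -0.0024 over all genes tested. The mitochondrial messenger RNAs had a median of 0.47; the difference between these medians was not tested. The 12 nuclear subunits of ATP synthase summed to 872, 744, 928 and 906 CPM in injected biopsies, against 906, 837, 990 and 759 CPM in control biopsies. Their highest value was the pig 13 control from site 7b, the biopsy with the lowest ATP6 level. The nuclear complex I subunits, 36 genes in sum, had 921, 783, 983 and 991 CPM in injected biopsies, against 925, 847, 1044 and 806 CPM in control biopsies.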

How the data were processed

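RNA from 8 skin biopsies of 2 pigs was analysed, with 4 biopsies in each group. Per the labels' protocols, total RNA was taken from whole biopsies and depleted with RiboZero Gold. The build was Sscrofa11.1 and the tools were bcl2fastq, STAR 2.5.1a and, from Subread, featureCounts 1.4.6-p5, per the submitters' processing notes. The authors deposited read counts by Ensembl gene, per the file headers, in a table of all biopsies and in a file for each biopsy. The files of single biopsies also hold CPM and RPKM that the authors computed from those counts; these deposited columns were compared with the counts and not tested. Counts of both sources were equal for every gene present in both. Only 607 complete genes were present in the single file for site 7b, a pig 13 control, and its counts came from the table, whose 32388 lines gave 31907 distinct genes; the 425 genes listed more than once had equal counts each time and were kept once.

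From the counts, CPM and RPKM were recomputed with TMM scaling in edgeR 4.0.16 under R 4.3.3 (TMM factors 0.9125 to 1.0929). The filter filterByExpr, with a minimum count of 10, kept 19862 genes and 18 of the 37 mitochondrial genes. The model held treatment and pig and was tested with edgeR's robust quasi-likelihood F test. Called genes are those with a p under 0.05 after Benjamini-Hochberg adjustment over all genes tested. The common biological coefficient of variation was 19.8%. Shares of counts were compared by exact permutation within each pig. A second fit took the mitochondrial total as library size. Alternatives were DESeq2 1.42.0, its size factors, total counts without TMM, TMM without mitochondrial and rRNA genes, and no filter on low counts. Further alternatives were no pig term, shares without annotated rRNA genes or among protein-coding genes only, and leaving out each biopsy.

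Pig was kept in the model because the labels name the animal of each biopsy. Checked on the data, deviations from the group means correlated between 0.252 and 0.538 for injected and control biopsies of one pig and between -0.49 and -0.282 across pigs. The deviations of each group sum to 0, so the negative values across pigs largely follow from the positive ones within a pig.

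The mitochondrial genes, the lists of nuclear genes and markers, and the rules were chosen with earlier results of these data known. Values in every biopsy are given for the protein-coding and rRNA genes and for tRNA genes averaging at least 100 counts, and the 2 other tested tRNA genes by their range. Of each nuclear list, the genes named are the 2 tested genes with the smallest p and the most abundant one, and of each marker list the most abundant one. The RefSeq gene table was used for names and spans. Near-identical copies of mitochondrial sequence in the nuclear genome may take or give reads, which the counts do not show. Sequences are not given here.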

Additional observations from a re-analysis of the deposited data

Results flagged for a closer look

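In 1 of 44 groups of 4 biopsies examined, a single biopsy lay far from the others. tRNA gene 10 had 0.184 CPM after TMM scaling in the injected biopsy from site 12c of pig 14, against 0.525 to 0.588 CPM in the other 3 injected biopsies. The gap was 0.846 of the whole range, above Dixon's critical value for 4 values. Chance flags about 1 in 20 such groups, so that a single one among 44 is not more than chance gives, and the value rests on few reads.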

How the results depend on the processing

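No mitochondrial gene was called for injected against control skin, for the interaction with the animal or relative to the mitochondrial total under any alternative run, and no nuclear gene of the lists for injected against control skin. Without the pig as replicate block, 0 of 18 mitochondrial genes were called, and the shares gave exact permutation p-values of 0.457 for the mitochondrial share, 0.171 for rRNA, 0.314 for tRNA and 0.2 for light-strand genes; only ND1 turned, to -0.038 on the log2 scale. Between pig 14 and pig 13, where 2 mitochondrial genes were called, 1 was called on total counts without TMM, where ND4L had 0.35 (adjusted p = 0.0875 by edgeR). With DESeq2 5 were called, without the filter on low counts 3 of 35 (ND4 added), and with one biopsy left out 0 to 4. Total counts moved the median log2 difference of all genes between the animals to -0.21, that of the mitochondrial messenger RNAs to 0.27, and tRNA gene 12 to -0.087. Annotated rRNA genes, nuclear and mitochondrial, were also left out of both numerator and denominator. The mitochondrial share then differed by -0.11 percentage points between injected and control biopsies, and among protein-coding genes by -0.17. With one biopsy left out, the difference in the mitochondrial share of all counts ran from -0.53 to -0.12 points. That in the rRNA share of mitochondrial counts ran from -5.22 to -2.005, in the tRNA share from 0.0013 to 0.0045 and in the light-strand share from 0.023 to 0.062. Several genes without a call changed sign when one biopsy was left out. For injected over control skin the log2 difference ran from -0.17 to 0.12 for ATP6, -0.50 to 0.58 for ATP8, -0.21 to 0.083 for COX2, -0.0062 to 0.27 for COX3, -0.023 to 0.21 for CYTB, -0.084 to 0.14 for ND1, -0.21 to 0.13 for ND2, -0.16 to 0.028 for ND4, -0.15 to 0.13 for ND6, -0.41 to 0.14 for tRNA gene 10 and -0.13 to 0.076 for tRNA gene 22. For pig 14 over pig 13 it ran from -0.55 to 0.44 for ATP8 and -0.18 to 0.27 for tRNA gene 12. The cause was not tested. Of the tRNA genes, 19 had too few reads to be tested, and the reason for the low counts was not tested.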

Other observations

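Markers of other tissue parts are given for the most abundant gene of each list, with 0 genes of these lists called between injected and control skin by edgeR. KRT10 of differentiated keratinocytes had 1920 to 4231 CPM in injected skin, against 3286 to 8380 CPM in controls. KRT71 of the hair follicle had 1177 to 1879 CPM in injected skin, against 476 to 1929 CPM in controls. S100A9 of neutrophils had 4.74 to 38.0 CPM in injected skin, against 10.3 to 114 CPM in controls, the highest being the pig 13 control from site 7b. MYH11 of smooth muscle had 400 to 446 CPM in injected skin, against 308 to 435 CPM in controls, CKM of skeletal muscle 6.01 to 7.18 CPM in injected skin, against 3.26 to 8.32 CPM in controls, SCD of sebaceous glands 578 to 4256 CPM in injected skin, against 1049 to 1945 CPM in controls, and HBB of red blood cells 8.93 to 459 CPM in injected skin, against 4.15 to 443 CPM in controls.

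In all, 6 nuclear genes of the mitochondrial lists were called between the animals, none of them chosen by the rule for named genes. TOP1MT, the mitochondrial topoisomerase, was higher in pig 14 by 0.95 ± 0.15 and MRPL12 by 0.42 ± 0.10 on the log2 scale (SE, adjusted p = 0.00453 and 0.0221 by edgeR). NDUFB9 differed by -0.67 ± 0.13, SIRT3 by -0.66 ± 0.16, MRPL3 by -0.43 ± 0.11 and MRPS30 by -0.67 ± 0.10 (SE, adjusted p = 0.0104, 0.0256, 0.037 and 0.00241 by edgeR). These compare 2 animals only, beside 10.7% of all genes tested called in either direction.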
